A study of Homo sapiens with 2 samples.

Results

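RBMS3 binding was measured by CLIP-seq at the mRNAs of the translation initiation and elongation factors, taken as the GENCODE release 44 protein-coding genes whose name starts with EIF or EEF followed by a number. The rule found 71 genes among 20046. The cells were MDA-MB-231, an established human triple-negative breast cancer line, stably transduced with a lentivirus that drives RBMS3 with an N-terminal double FLAG tag from the EF1a promoter, in addition to the RBMS3 gene of the cells. Ultraviolet light of 254 nm at 400 mJ/cm2 fixed proteins to the RNA they touch, and beads that bind the tag pulled RBMS3 out with its RNA. There was 1 group of 2 biological replicates, of which replicate 2 is named MDA-MB-231 in its title and differently in its cell line label, and no library without the tag or the antibody was analysed here. The authors called sites on the pooled tags of both replicates, a tag being a read made unique by its molecular identifier, so no value below has a replicate error and no difference could be tested. For each site the list gives the tags that cover it and the tags in which the crosslinked base is deleted. The percentage of tags with the deletion and its 95% Wilson interval were computed from these counts, and the interval covers counting error only.

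Initiation factors bring the small ribosomal subunit, the initiator tRNA and the mRNA cap together, and elongation factors deliver aminoacyl-tRNA and move the ribosome along the codons. Many of these factors are made in large amounts in growing cells. The 3′UTR of an mRNA holds sites for RNA-binding proteins that act on its stability and translation, and its last stretch carries the poly(A) signal, AATAAA or the variant ATTAAA, at which the transcript is cleaved and the tail is added. RBMS3 belongs to a small family of proteins with RNA recognition motifs that bind A- and U-rich RNA.

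The sequences around the strongest sites show what the results turn on. They were read from hg38 on the strand of the transcript, 5′ to 3′, with the poly(A) signal in capitals, and the position of the deletion is counted from 1 at the left end. EIF4G2 is shown at both of its main deletions, EIF4A3 and EIF4G1 carry the variant signal, and EEF1A1 is shown because its window has neither signal. Neither signal lay within 25 nt of the strongest site of EIF2A either, with 161 of 10225 tags, which is not shown.
EEF1B2 (chr2:206162887-206162916, plus strand, deletion at base 15): ccatcctggatcatggcatttaAATAAAag
EIF4G2 (chr11:10797058-10797087, minus strand, deletion at base 15): acttgtatctatcAATAAAcattgtgatac
EIF4G2 (chr11:10797069-10797098, minus strand, deletion at base 7): tgattttatatacttgtatctatcAATAAA
EIF4A2 (chr3:186789850-186789879, plus strand, deletion at base 14): tgtcttaatgaagtttgaatgttaAATAAA
EIF1 (chr17:41691618-41691647, plus strand, deletion at base 15): tatttaAATAAAacttgttttcagaaatac
EEF2 (chr19:3976054-3976083, minus strand, deletion at base 15): tggaatAATAAAtttgataaggtggtgact
EIF4G1 (chr3:184335331-184335360, plus strand, deletion at base 15): ttATTAAAcatgaattcaattaagctcact
EIF3D (chr22:36510853-36510882, minus strand, deletion at base 20): AATAAAatatatatctgtttagtctttccc
EIF2AK2 (chr2:37099209-37099238, minus strand, deletion at base 15): ttgaAATAAAtgtttattagaaaaaccaat
EIF4A3 (chr17:80135257-80135286, minus strand, deletion at base 15): tttcATTAAAaatttaaaacttttcccata
EEF1A1 (chr6:73515816-73515845, minus strand, deletion at base 15): gtgaaacccagtgtcttagacaactgtggc
In EEF1B2, EIF4A2 and the upstream site of EIF4G2 the deletion comes before the signal, in the downstream site of EIF4G2 it falls on its second base, and in EIF1, EEF2, EIF3D and EIF2AK2 it comes after the signal.

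Of the 71 genes, 49 had at least 1 site on their own strand (69.0%, 95% Wilson interval 57.5 to 78.6%), against 37.6% of all protein-coding genes. A site in a 3′UTR was listed for 47 genes (66.2%, 54.6 to 76.1%), against 31.8% of all protein-coding genes. By the representative transcript alone, 44 of the factor genes had one. Among the 49 is the readthrough locus EEF1E1-BLOC1S5, whose only sites are the 2 of EEF1E1, so 48 genes had a site of their own. These genes held 182 sites in 88 clusters, where sites up to 50 nt apart on a strand form a cluster. RNA levels were not measured here, so less binding and less RNA of a gene cannot be told apart. The 4 genes with the most deletions, EIF4G2, EIF1, EIF4A2 and EEF1B2, together had 11181 of the 20305 deletions at these sites, which is 55.1%.

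**Figure D1:**
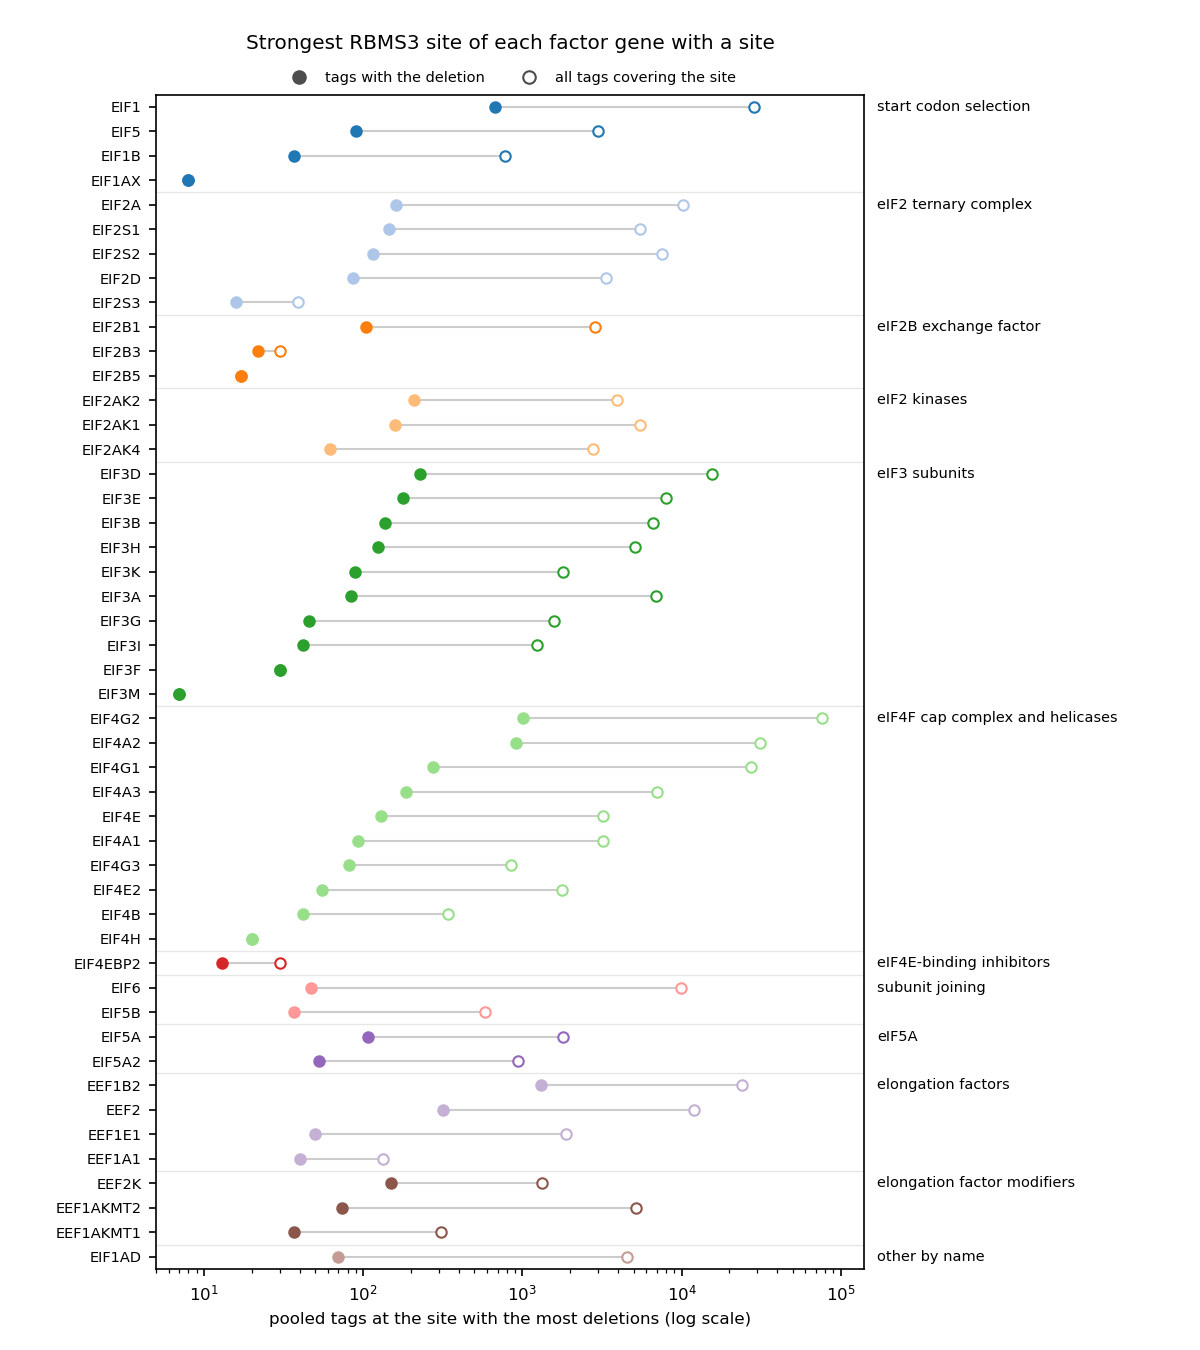
Each row is 1 of the 48 genes with a site of its own, grouped by role, and the horizontal log axis counts pooled tags at the gene's site with the most deletions. Filled points are tags with the deletion, open points all tags at that site, and a lone filled point marks a site where every tag carried the deletion. Deletions ranged from 7 in EIF3M to 1311 in EEF1B2, and tags from 7 to 76136.

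Among the factors that select the start codon, 4 of 5 genes had a site, and EIF1, which keeps the scanning ribosome open until it meets the start codon, stood far above its relatives. EIF1 (chromosome 17, 3′UTR of 1842 nt in the representative transcript) had 16 sites in 3 clusters. The middle cluster held its strongest site, with the deletion in 674 of 28361 tags (2.38%, 2.21 to 2.56%), followed by 533 of 28144 and 436 of 36245 tags. Its upstream cluster reached 172 of 7647 tags, and the cluster 15 nt from the representative end had a single site with 61 of 2680 tags. The other sites of the middle cluster had the deletion in 272 of 25669, 106 of 22709, 79 of 11023, 70 of 12257, 46 of 32285, 37 of 15354 and 37 of 25670 tags, and the other sites of the upstream cluster in 115 of 8004, 99 of 4388, 97 of 8004 and 55 of 1989 tags. The strongest site of each EIF1 cluster was between 2.25 and 2.38%, 6 of the 10 sites of the middle cluster were under 1%, and the middle cluster had the most tags. EIF1B, its close paralog, had 1 site with 37 of 777 tags (4.76%, 3.47 to 6.50%), 14 nt from its end. Among the factor gene sites with the deletion in under 30% of tags, 37 was the lowest number of deletions. Sites of this kind with few tags were thus listed only at higher percentages. The percentages of EIF1B and EIF1 therefore cannot be compared by counting error alone. EIF5, which triggers GTP hydrolysis on eIF2, had 60 of 868 and 90 of 2979 tags at 2 places of its 3′UTR. EIF1AX, the scanning partner of EIF1, had only a site of 8 tags, all with the deletion, and EIF1AY had none.

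The eIF2 complex carries the initiator tRNA, and its subunits differed. EIF2S1, the subunit phosphorylated under stress, had 5 sites at 2 places of its 3′UTR. At the distal end the deletion was found in 145 of 5510 tags (2.63%, 2.24 to 3.09%), 89 of 6185 and 47 of 1869 tags, and 2671 to 2678 nt upstream it was found in 63 of 7822 and 48 of 8583 tags. The upstream place thus had more tags but a lower percentage, with intervals that do not overlap between the strongest sites (0.63 to 1.03% upstream). EIF2S2, the beta subunit, had 5 sites in 1 cluster 1129 to 1195 nt from its annotated end, the strongest with 115 of 7524 tags (1.53%, 1.28 to 1.83%) and the others with 111 of 7165, 54 of 5098, 49 of 7799 and 48 of 5176 tags. EIF2S3, the GTP-binding gamma subunit, had 3 sites with 16 of 39, 13 of 15 and 9 of 9 tags and its relative EIF2S3B had none. EIF2A, an alternative initiator tRNA factor, had 4 sites in 1 cluster, the strongest with 161 of 10225 tags (1.58%, 1.35 to 1.84%) and the others with 143 of 11452, 120 of 2503 and 47 of 11306 tags. EIF2D, which also binds initiator tRNA, had 87 of 3378 and 69 of 2807 tags, 13 and 29 nt from its end.

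Of the 5 eIF2B subunits, which recharge eIF2 with GTP, 3 had a site and 2 had one in a 3′UTR. EIF2B1 had 104 of 2873 tags (3.62%, 3.0 to 4.37%) at a poly(A) signal 639 nt from its end. EIF2B3 had 3 sites, with 22 of 30, 20 of 20 and 8 of 8 tags, all in introns, and EIF2B2 and EIF2B4 had none. EIF2B5 had a site of 17 tags, in the 3′UTR of another transcript and in coding sequence of the representative one.

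The 4 kinases that phosphorylate eIF2 under stress had sites in 3 genes. EIF2AK2, the kinase activated by double-stranded RNA, had 7 sites in 4 clusters of an 8063-nt 3′UTR. Near its end the deletion was found in 210 of 3905 tags (5.38%, 4.71 to 6.13%), 88 of 4096, 95 of 3980 and 67 of 2152 tags. At 7006 to 7448 nt upstream of the representative end it was found in 101 of 1707, 55 of 3382 and 24 of 47 tags. EIF2AK1, the kinase regulated by heme, had 5 sites in 1 cluster away from the annotated ends, with 158 of 5464 tags (2.89%, 2.48 to 3.37%) at the strongest and 85 of 5253, 78 of 4732, 75 of 5030 and 54 of 403 tags at the others. EIF2AK4, the sensor of uncharged tRNA, had 62 of 2788 tags, and EIF2AK3, the kinase of the endoplasmic reticulum, had no site.

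Among the 14 genes of eIF3, the scaffold that holds the small subunit, 10 had a site, each with at least 1 in a 3′UTR. EIF3D, the subunit that can bind the cap, was the strongest, with the deletion in 228 of 15501 tags (1.47%, 1.29 to 1.67%), 102 of 16202, 64 of 10362 and 46 of 16691 tags within 36 nt of its end. EIF3E had 8 sites in 4 clusters. Its strongest cluster, 2 to 9 nt from an annotated end, had 177 of 7937 tags (2.23%, 1.93 to 2.58%), 118 of 8114 and 80 of 6199 tags. A further EIF3E cluster with 67 of 1219, 50 of 1105 and 46 of 2053 tags lies in the 3′UTR of a shorter transcript and in an intron of the representative one, and its other sites had 20 of 23 and 7 of 7 tags. EIF3H reached 124 of 5107 tags, with 72 of 10008, 66 of 9844 and 63 of 2030 tags at its other 3′UTR sites, and EIF3B 137 of 6608 tags, with both strongest sites within 30 nt of an end. EIF3A, the largest subunit, had sites at 2 places of its 3′UTR, with 76 of 1877 tags at the end and 84 of 6916, 73 of 8025 and 37 of 1736 tags 1367 to 1391 nt from it. EIF3G, EIF3I and EIF3K had 46 of 1582, 42 of 1229 and 89 of 1795 tags at their ends, and EIF3K also had 68 of 1555 tags. EIF3F and EIF3M had only sites of 30 and 7 tags, each tag with the deletion. These lie in the 3′UTR of other transcripts and in coding sequence of the representative one. EIF3C, its near-identical copy EIF3CL, EIF3J and EIF3L had no site.

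The group made up of the cap-binding complex, its helicases and relatives of these proteins held the most sites, 65 in 10 of 12 genes. EIF4G2 (chromosome 11), a relative of the scaffold eIF4G that lacks the part binding the cap protein, had 12 sites over the last 65 nt of its transcript. Peaks of 1010 in 76136 tags (1.33%, 1.25 to 1.41%) and 1007 in 48303 tags (2.08%, 1.96 to 2.22%) lay 19 nt apart, 19 and 38 nt from the end. The remaining 10 had the deletion in 432 of 61042, 359 of 70500, 154 of 13544, 127 of 25659, 80 of 28155, 74 of 66970, 67 of 68340, 66 of 72795, 54 of 55246 and 41 of 65864 tags. The 2 peaks had close counts of deletions, and their percentages have intervals that do not overlap. EIF4G1, the main scaffold, had 7 sites within 31 nt of its end, the strongest with 275 of 27189 tags (1.01%, 0.90 to 1.14%) and the others with 160 of 27141, 87 of 28239, 82 of 20770, 75 of 28229, 53 of 16396 and 41 of 29108 tags. EIF4G3 had 81 of 846 tags (9.57%, 7.77 to 11.7%) and 41 of 3016 tags at 2 ends, and its 3 intronic sites had 29 of 40, 12 of 12 and 10 of 10 tags. The 3 scaffold paralogs thus differed in percentage at their strongest sites by more than counting error. Factor gene sites under 30% had at least 37 deletions, so sites with few tags were listed only at higher percentages. Part of the higher percentage of EIF4G3, at 846 tags, may come from which sites were listed.

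EIF4A2 (chromosome 3), 1 of 2 cap-complex helicases, had 16 sites. Its main cluster had 9 sites in the last 43 nt, led by 916 of 31291 tags (2.93%, 2.75 to 3.12%), and the others had 349 of 37010, 237 of 19745, 210 of 41466, 163 of 42035, 153 of 42058, 78 of 42428, 72 of 42981 and 61 of 39026 tags. A cluster 144 to 177 nt from the end had 5 sites with 122 of 4906, 105 of 2878, 90 of 4772, 58 of 4799 and 50 of 2281 tags. A further site had 27 of 51 tags. EIF4A1, the other helicase, had 7 sites, the strongest with 93 of 3192 tags (2.91%, 2.38 to 3.56%) and the others with 65 of 2831, 55 of 2040, 54 of 2080, 50 of 1395, 47 of 3219 and 37 of 1414 tags. Each of these sites also lies in an exon of an overlapping gene on the same strand, to which the tags could belong. EIF4A3, which sits in the exon junction complex, had 6 sites, the strongest with 187 of 7016 tags (2.67%, 2.31 to 3.07%) and the others with 126 of 7201, 102 of 7340, 98 of 7303, 61 of 4096 and 54 of 4300 tags. Deletions at the strongest site thus ranged from 93 to 916 among the 3 paralogs, while their percentages overlapped within counting error.

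EIF4E, the cap-binding protein, had 130 of 3212 tags (4.05%, 3.42 to 4.79%) in a cluster of 5 sites 603 to 650 nt from its end, whose others had 72 of 8262, 53 of 4572, 52 of 2168 and 42 of 8604 tags, and 51 of 3155 tags 20 nt from the end. EIF4E2, a cap-binding repressor, had 55 of 1775 and 39 of 212 tags at 2 separate ends, and EIF4E3 and EIF4E1B had none. EIF4B, a helper of the helicase, had 42 of 343 tags, and EIF4H, with the same role, had only sites of 20 and 10 tags, all with the deletion. Of the inhibitors that bind eIF4E, EIF4EBP2 had 13 of 30 tags, and EIF4EBP1, EIF4EBP3 and EIF4ENIF1, the transporter of eIF4E, had no site. EIF5B, which joins the subunits, had 37 of 586 tags in its 3′UTR, and EIF6, which keeps the large subunit apart, had 47 of 9954 and 42 of 7685 tags, both under 1%. EIF5A, the hypusine-bearing factor, and EIF5A2 reached 108 of 1794 tags (6.02%, 5.01 to 7.22%) and 53 of 943 tags (5.62%, 4.32 to 7.28%), which overlap within counting error. EIF5A2 had 40 of 636 tags at another place, and EIF5AL1 had no site.

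Among the elongation factors, EEF1B2 had the most deletions at 1 site of all members, though EIF4G2, EIF1 and EIF4A2 had more summed over their sites. This exchange factor of eEF1A (chromosome 2, 45-nt 3′UTR in the representative transcript) had the deletion in 1311 of 24125 tags (5.43%, 5.16 to 5.73%), 650 of 24765, 76 of 24149 and 67 of 25075 tags, 9 to 26 nt from its end. By deletions at a 3′UTR site it ranked 64 among the 6371 genes with one. EEF2, the translocase, had 316 of 12043 tags (2.62%, 2.35 to 2.93%) and 107 of 12673 tags, 13 and 23 nt from its end. EEF1A1, which delivers aminoacyl-tRNA, had only 40 of 134 tags (29.9%, 22.8 to 38.1%) and 14 of 16 tags. EEF1A1 was thus the member with the fewest tags among those with a site under 30%. EEF1E1, included by its name, had 50 of 1874 and 47 of 352 tags, and EEF1A2, EEF1D and EEF1G had no site. EEF2K, the kinase of EEF2, had 150 of 1325 tags (11.3%, 9.73 to 13.1%) and 80 of 1519 tags at a poly(A) signal 2118 nt from its end. Of the methyltransferases of these factors, EEF1AKMT2 had 5 sites in 4 clusters, with 74 of 5201, 53 of 2416, 42 of 1670, 14 of 21 and 8 of 8 tags, EEF1AKMT1 had 37 of 310 tags, and EEF1AKMT3, EEF1AKMT4 and EEF2KMT had none. EIF1AD, named for a domain shared with eIF1A, had 70 of 4518 and 57 of 1782 tags, and the readthrough locus EEF1AKMT4-ECE2 had no site.

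The sites were divided into 2 classes at 30% of tags with the deletion, a cut set here. In the whole list no site under 30% had fewer than 110 tags. Sites with fewer tags were thus listed only at high percentages, so the classes differ in tags partly by which sites were listed. The 151 sites under 30% all lay in 3′UTRs, had 134 to 76136 tags (median 6185) and 37 to 1311 deletions, with a median percentage of 1.62%. The other 31 had 7 to 51 tags (median 17), 20 of them carried the deletion in every tag, and 16 lay in a 3′UTR, 10 of these by the representative transcript. Over all protein-coding genes, 97.7% of the sites under 30% and 44.7% of the others lay in 3′UTRs, and the others made up 24.4% of sites, against 17.0% here. The median percentage over the 167 3′UTR sites was 2.08%, against 1.96% over all genes, and with 1 site per cluster 3.62%, against 4.59%. EIF1AX, EIF2B3, EIF2B5, EIF2S3, EIF3F, EIF3M, EIF4EBP2 and EIF4H were the 8 genes with sites of 30% or more only, so their place among the bound genes rests on 7 to 39 tags.

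**Figure D2:**
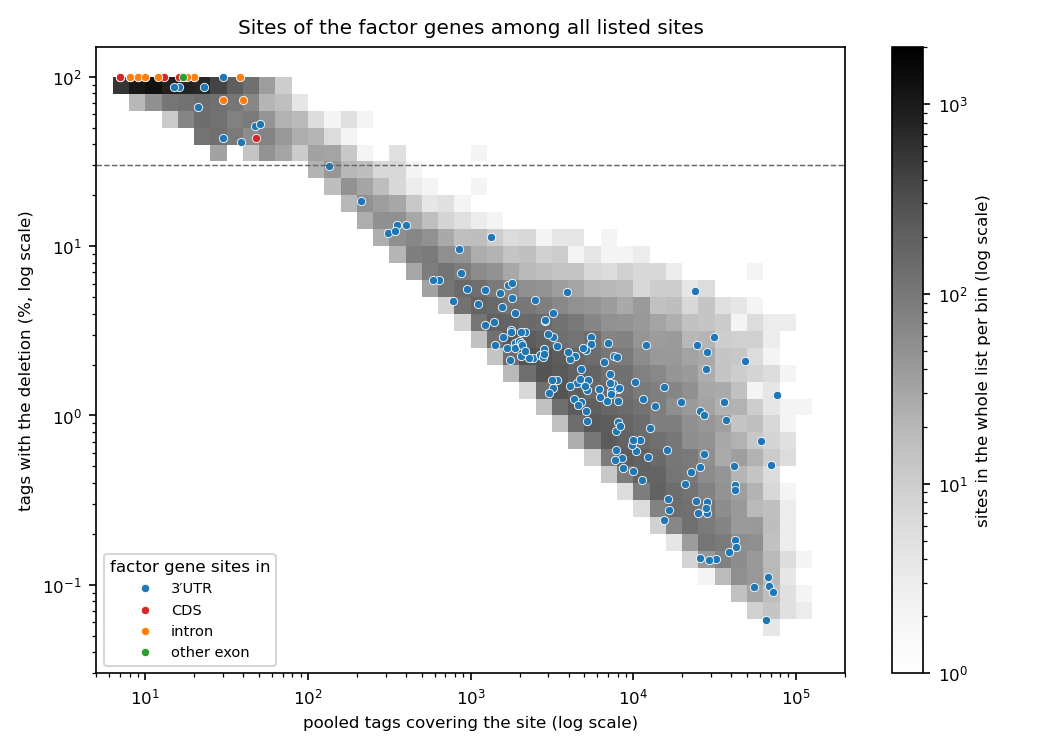
Each coloured point is 1 of the 182 sites of the factor genes, with the tags that cover it and the percentage with the deletion on log axes, coloured by where the site lies, and grey squares count all 27706 listed sites. The dashed line is at 30%. All 151 points under the line lie in 3′UTRs, and the points above it have at most 51 tags.

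By position, 167 of the 182 sites lay in 3′UTRs (91.8%, 86.9 to 94.9%), 9 in introns, 5 in coding sequence, 1 in another exon and 0 in a 5′UTR. Over all protein-coding genes 84.7% lay in 3′UTRs. The interval treats sites of a cluster as independent. Counted by cluster, 73 of 88 (83.0%) held a 3′UTR site, against 9975 of 13597 over all protein-coding genes. The 15 sites elsewhere were all of 30% or more. In coding sequence these were EEF2 with 7 of 7 tags, EIF4G2 with 9 of 9, EIF3A with 13 of 13, EIF5B with 16 of 16 and EIF2S2 with 21 of 48 tags. The intronic sites lay in EIF2B3 and EIF4G3, with 3 each, and in EIF2S3, with 9 of 9 tags, EIF3A, with 18 of 18, and EIF3H, with 38 of 38. The site in another exon was in EIF4A2, with 17 of 17 tags. Of the 167 sites, 11 lie in the 3′UTR of another transcript but not of the representative one, in EIF3E, EIF3F, EIF3M, EIF2B5, EIF4A2, EIF4E2, EIF4H and EEF1E1. In the representative transcript 5 of these lie in coding sequence, in EIF2B5, EIF3E, EIF3F, EIF3M and EIF4H.

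**Figure D3:**
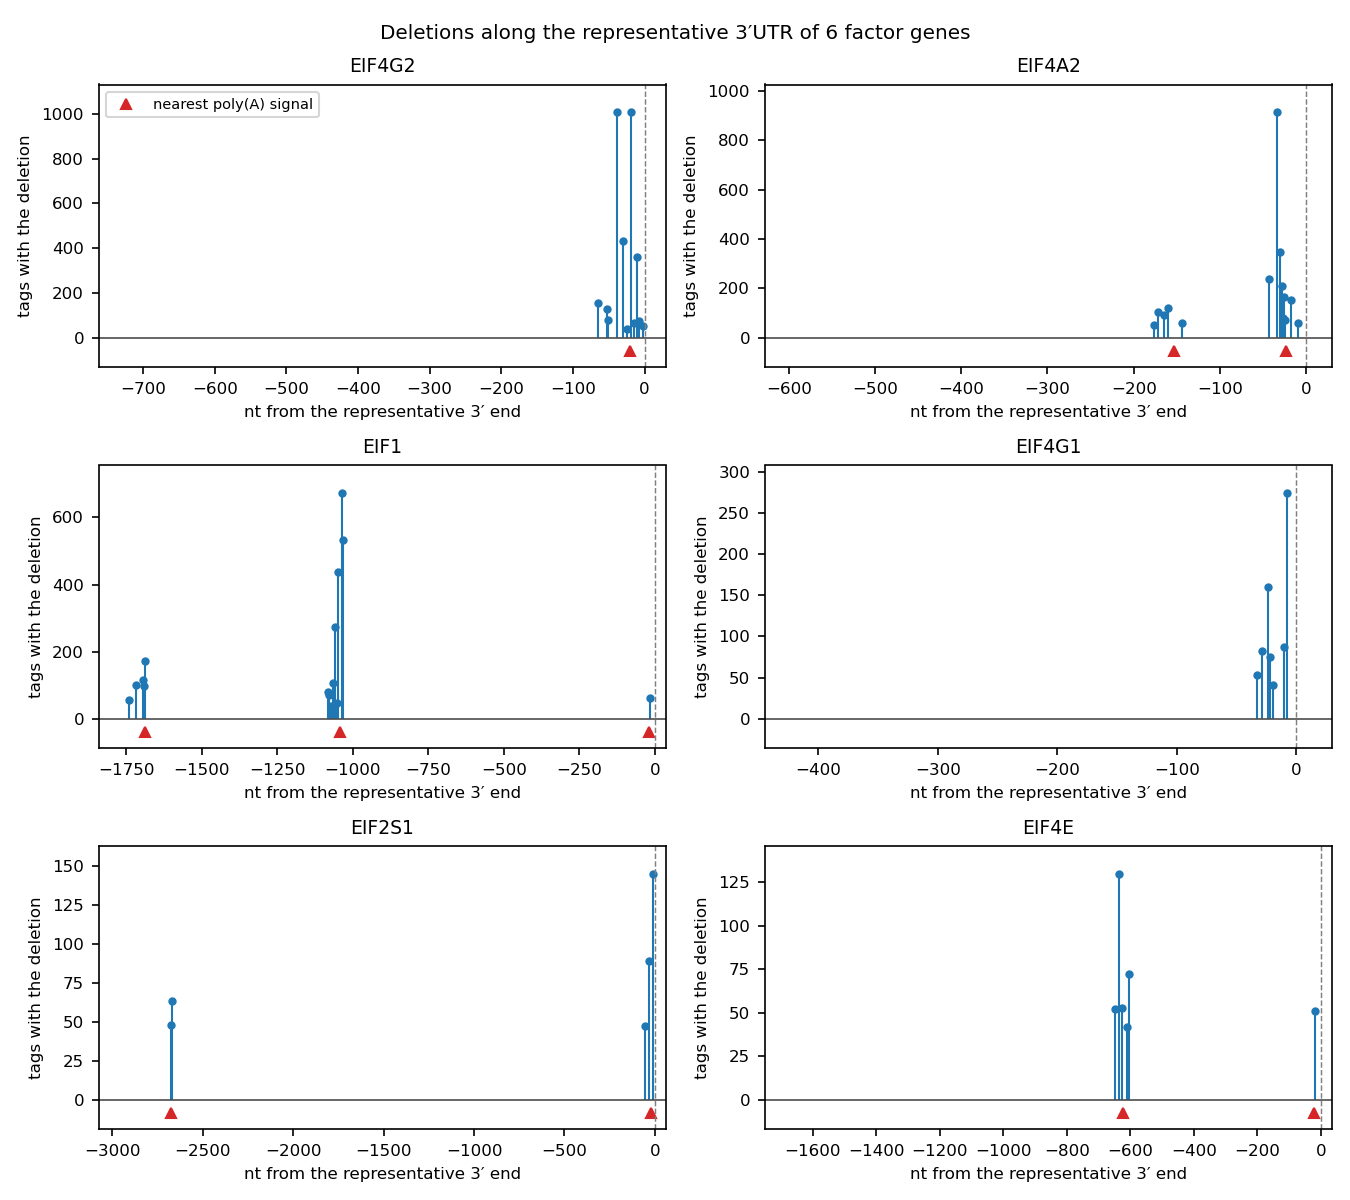
Each panel covers the representative 3′UTR of 1 gene, with the distance from its annotated 3′ end in nt on the horizontal axis and tags with the deletion per site on the vertical axis, scaled per gene. Red triangles mark the first base of the nearest AATAAA signal within 50 nt of a site. EIF4G2 and EIF4G1 had 1 group of sites at the end, and EIF4A2, EIF1, EIF2S1 and EIF4E also had groups upstream.

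Many sites lay close to annotated transcript ends. Of the 167 3′UTR sites, 93 (55.7%, 48.1 to 63.0%) lay within 100 nt upstream of an annotated 3′ end of a coding transcript, with a median distance of 50 nt, against 65.6% and 38 nt over all protein-coding genes. Counted with 1 site per cluster, the shares were 53.4% (42.1 to 64.4%) and 55.6%, so the factors and all genes were then within counting error. With the ends of every annotated transcript the share was 68.3%, against 69.1% over all genes, and the sites gained include 15 of EIF1, which lie 2 to 72 nt upstream of ends of other transcripts. Only 3 of the 16 3′UTR sites of 30% or more lay within 100 nt. In 18 of the 47 genes (38.3%) the 3′UTR held at least 2 clusters, against 36.0% of all genes with a 3′UTR site. EIF2AK2, EIF3E and EEF1AKMT2 had 4 clusters each, and EIF1 and EIF4A2 had 3. The bound RNA was captured through a poly(A) tail with oligo(dT), and RNA that already has a tail can be captured alike. What this adds to sites at ends was not tested.

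**Figure D4:**
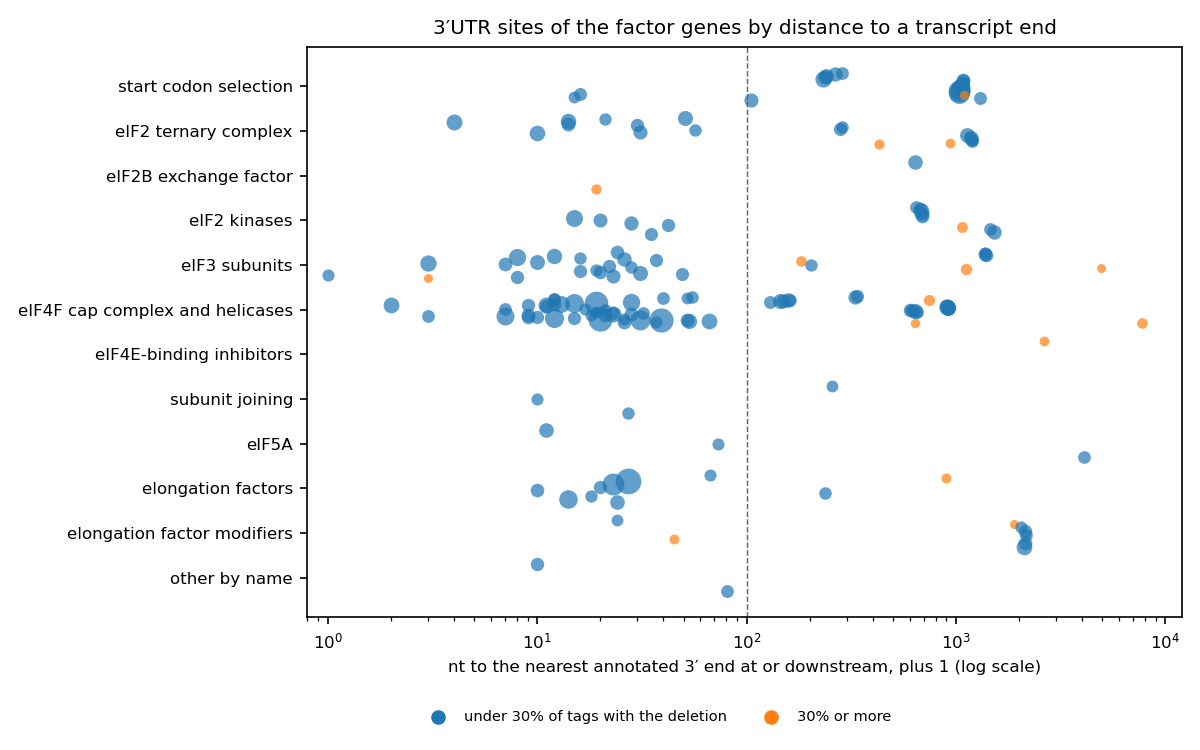
Points are the 167 3′UTR sites by role of the gene, at their distance to the nearest annotated 3′ end at or downstream plus 1 nt on a log axis, with larger points for more deletions. Blue points have the deletion in under 30% of tags and orange points in 30% or more, and the dashed line is at 100 nt. Of the 167 sites, 93 lie left of the line, and 3 of these are orange.

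A poly(A) signal within 25 nt of the strongest deletion was found in 49 of the 73 3′UTR clusters (67.1%, 55.7 to 76.8%), against 60.6% over all protein-coding genes. With 10 nt in place of 25 nt the shares were 34.2% and 28.5%. Of the 40 clusters with a site within 100 nt of an end, 31 had it (77.5%), against 76.6% over all genes. Away from the ends of coding transcripts, 16 of 20 clusters whose strongest site was under 30% had the signal as well (80.0%). This compares with 63.8% of 2248 such clusters over all genes, a difference on 20 clusters that was not tested. Of the 13 clusters at 30% or more, 2 had it. These inner clusters with a signal include those of EIF1, EIF2S1, EIF2S2, EIF2AK1, EIF2AK2, EIF2B1, EIF3A, EIF4E and EEF2K. The sites of the EIF1 clusters lie 2 to 72 nt from ends of other annotated transcripts, so these clusters are inner by coding transcripts only. Genes whose strongest site had no signal in the window include EIF4A1, EIF2A and EIF1B.

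Within 50 nt of the deletion AATAAA was found at 112 of 151 3′UTR sites under 30%. It began 1 to 20 nt downstream at 46 of them, held the deletion at 14, and ended upstream of it at 36, with a median start 2 nt downstream. Over all genes the shares were 39.3%, 15.2% and 32.2%, against 41.1%, 12.5% and 32.1% here, so the position of the signal was nearly that of other bound mRNAs. EIF4G2 shows both arrangements, with 1 peak 18 nt upstream and the other inside the signal.

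**Figure D5:**
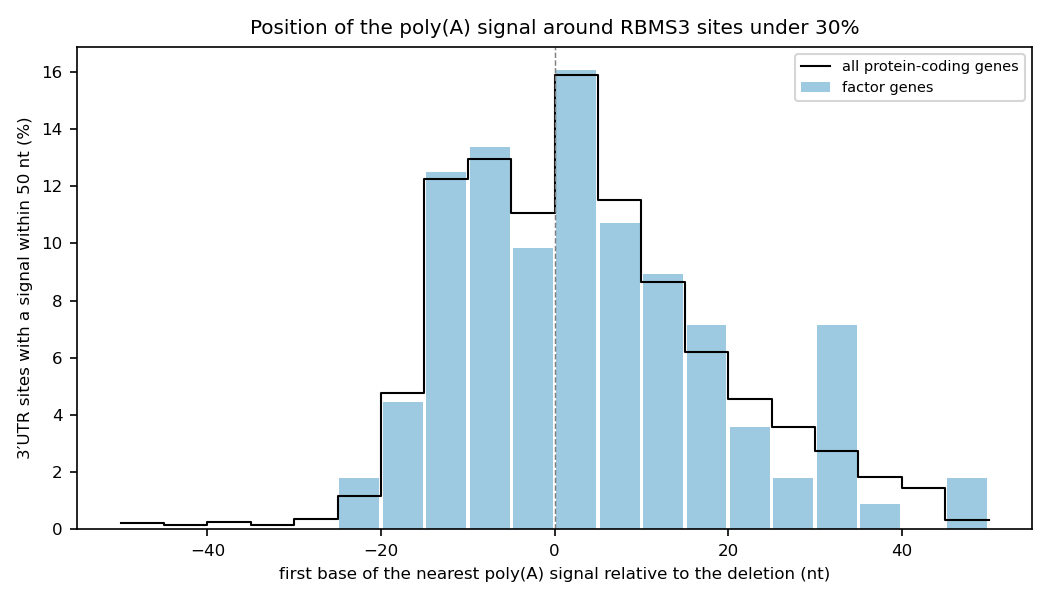
Bars give, in bins of 5 nt, where the nearest AATAAA signal began relative to the deletion for the 112 factor gene sites, as a percentage of them, and the black line gives the same for 12646 sites of all protein-coding genes. Positive values are downstream of the deletion. Both distributions are highest in the bin from 0 nt, with 16.1% and 15.9%.

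The AUA motif of the study, a 7-base pattern of A, G or T, then A or T, then ATA, then A or T, then A, which allows 12 words, was searched on the transcript strand. It was found within 25 nt in 41 of 73 clusters (56.2%, 44.8 to 66.9%), against 47.8% over all genes, and within 10 nt in 26.0% against 20.6%. Several of its words contain AATAAA. Without matches that contain the signal, 12 clusters had it (16.4%, 9.66 to 26.6%), against 14.6% over all genes, among them EIF4G2, EIF3D and EIF1AD. The deleted base was T at 64 of 88 clusters (72.7%, 62.6 to 80.9%), against 70.0% over all genes, then A at 15, C at 6 and G at 3. In 62 of these 64 the T lies in a run of at least 2, where the deleted copy cannot be told from its neighbours. The strongest site of EEF1B2 had G as the listed base and that of EIF4G2 had A.

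Genes that work beside these factors had 3′UTR sites at similar shares. Of 87 ribosomal protein genes, named RPL or RPS with a number, 58 had a 3′UTR site (66.7%, 56.2 to 75.7%), and of 42 other translation genes 25 did (59.5%, 44.5 to 73.0%), intervals that overlap that of the factors. Over all protein-coding genes the share was 31.8%. The 42 comprise termination and recycling factors with 3′UTR sites in 6 of 8 genes, poly(A)-binding proteins and partners in 5 of 7, other initiation regulators in 9 of 12, enzymes that modify elongation factors in 1 of 7 and mitochondrial factors in 4 of 8. The 5 with the most deletions were PABPC1 with 925 of 13536 tags, ABCE1 with 355 of 25106, PPP1R15B with 326 of 27358, DHX29 with 285 of 8028 and LARP1 with 284 of 8790 tags. The 47 factor genes with a 3′UTR site had a median of 87 deletions at their strongest site, against 83 over all genes and 237.5 in ribosomal protein genes. Of the ribosomal protein 3′UTR sites 75.4% lay within 100 nt of an end (70.0 to 80.0%), against 55.7% of those of the factors. Counted with 1 site per cluster, these were 68.9% (57.7 to 78.3%) and 53.4% (42.1 to 64.4%), intervals that overlap.

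The genes without a site had shorter 3′UTRs by their median, as over all genes. The merged 3′UTR had a median of 2412 nt in the 48 bound genes and 1520 nt in 21 unbound ones, the readthrough loci left out, against 2623 and 1368 nt over all protein-coding genes. Copies elsewhere in the genome, with 95% identity over at least 90 of the last 100 nt of the representative transcript, were found for 6 of the 23 genes without a site of their own and for 4 of the 48 with one. The former were EEF1D, EEF1G, EEF2KMT, EIF3C, EIF3CL and EIF5AL1, and the latter EEF1B2 with 6 copies, EIF4B with 5, EIF5A with 4 and EIF4H with 2. EEF1A1 has 49 pseudogenes by name in the annotation and no such copy of the last 100 nt of its representative transcript, which ends a 3′UTR of 2060 nt. The ends of its other transcripts were not searched for copies. How tags were divided among copies was not tested, so values of these genes and of EEF1A1 are uncertain.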

How the data were processed

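FLAG-tagged RBMS3 CLIP-seq of 2 biological replicates was used. Per the labels and the study's methods, the authors aligned the reads to hg38, reduced them to unique tags, pooled both replicates and called deletion sites with the CLIP Tool Kit, keeping sites that met limits of false discovery rate and fold change, whose baseline the methods do not name. The deposited values are counts per site, tags that cover it and tags with the deletion, and are not normalized. Tool versions were not given in the sources used here. Library depth was not analysed here, so precision is given per site by 95% Wilson intervals.

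Each interval is 21 nt long and its centre was taken as the deletion. All 25 chromosome names of the list were in the reference and no site passed a chromosome end. Sites were placed by strand on all GENCODE transcripts in the order 3′UTR, 5′UTR, coding sequence, other exon and intron. Ends were those of coding transcripts not marked incomplete. The representative transcript is the one tagged Ensembl canonical. For motifs and bases a cluster was represented by its site with the most deletions, with windows of 25 nt on each side. Copies were searched with BLAST+ 2.17.0. Placement was tested on simulated positions. Python 3.11.15, pysam 0.24.0, samtools 1.23.1, scipy 1.17.1 and matplotlib 3.10.9 were used.

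Every member was accounted for. Tags and deletions of each site are given for the 12 with the most deletions at a site, the 5 with the most 3′UTR clusters, members with sites outside 3′UTRs or of 30% or more only, and paralogs, and the other translation genes are counted with at most 5 named. The members and lists were chosen with earlier results of these data known. Alternatives used at least 20 or 50 deletions, at least 10% or under 30% of tags, and other annotation, cluster and window rules. Some were added after the data were seen, among them leaving out the readthrough loci and using the ends of every annotated transcript.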

Additional observations from a re-analysis of the deposited data

How the results depend on the processing

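Of 57 alternative values, 34 stayed within the 95% interval of the reported share or median, or within 1.5 times the reported count. Limiting sites to at least 10% of tags with the deletion left 27 genes with a site and 18 with a 3′UTR site, and gave 60.5% of sites in 3′UTRs, 34.8% within 100 nt of an end, 30.4% of clusters with a poly(A) signal, 30.4% with the AUA motif and a median percentage of 66.7%. Gene counts over all protein-coding genes under this limit are not given here, so the drop cannot be read as particular to the factors. With at least 20 deletions 96.9% of sites lay in 3′UTRs and 77.4% of clusters had a signal. With at least 50 deletions these were 100% and 84.1%, and 68.2% of clusters had the AUA motif. Sites under 30% gave 100% and 82.5%. By 1 representative transcript per gene 85.7% of sites lay in 3′UTRs and 46.2% were within 100 nt of its end, and the ends of every annotated transcript, an alternative chosen after seeing the data, gave 68.3%. With 1 site per cluster 83.0% of sites lay in 3′UTRs and the median percentage was 3.62%. Windows of 10 nt on each side held a signal in 34.2% and the AUA motif in 26.0% of clusters, and matches without AATAAA left 16.4%. Among deletions outside any run of the same base, 2 of 8 clusters (25%) had T deleted. Strand, downstream sequence, readthrough loci and any overlap of the interval moved the counts of genes by at most 1. The pooled list gives no value without a replicate, and no paired analysis was possible because the values carry no replicate numbers. Depth limits the sites of 30% or more, which rest on at most 51 tags, and a gene without a site may have had too few tags for the call.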

Other observations

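The spans of 5 factor genes also held 6 sites on the opposite strand, which enter no count above. Of these, 5 lay in the 3′UTRs of genes on that strand. They were DDX55 at EIF2B1 with 103 of 1703 tags, REV1 at EIF5B with 108 of 1057 and 32 of 561 tags, MTO1 at EEF1A1 with 52 of 2650 tags and ALG1 at EEF2KMT with 52 of 137 tags. The other, at EIF2S1, had 19 of 30 tags and lay in no annotated gene on its strand. EIF2S3 had a further site 94 nt past its annotated end, with 13 of 13 tags.

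Several factor mRNAs begin with a terminal oligopyrimidine tract, a 5′ sequence through which growth signals control translation. Of 10 such members, 7 had a 3′UTR site (70.0%, 39.7 to 89.2%), against 66.2% of all the factor genes and 31.8% of all protein-coding genes. These ranged from EEF1B2, with 1311 of 24125 tags, to EIF3F, with 30 of 30 tags. The EIF3F site lies in coding sequence of the representative transcript. In 20 of the 47 factor genes with a 3′UTR site the strongest site had at least 100 deletions (42.6%), against 42.6% of the 6371 such genes overall.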
